A study of Rattus norvegicus with 30 samples.

Results

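Peroxins, the proteins that build the peroxisome, were examined together with the organelle's division factors, membrane transporters and matrix enzymes in rat hepatocytes given clofibrate. The list holds 36 genes, and a gene was taken from the array when a probe set (the group of short probes that reads 1 transcript) carried its symbol and no other. The brightest such probe set on average over 30 arrays stood for the gene. This gave 34 of the 36 genes, out of 14217 genes that the array names singly. Ddo and Pipox were without such a probe set and were not analysed here. A filter on low signals left 32 genes for testing, and Abcd2 and Agps lay under it.

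The cells were frozen primary hepatocytes of male Sprague Dawley rats from a commercial supplier, thawed, plated under Matrigel and dosed on day 3 of culture. The 6 groups of 5 wells were 1% DMSO for 24 h, 60 uM clofibrate for 24 h, 1000 uM clofibrate for 24 h, and the same treatments for 48 h. DMSO was the shared vehicle, and clofibrate, a lipid-lowering fibrate, is a known agonist of PPAR-alpha, a nuclear receptor. The labels name separate cultures and not separate animals, so the p-values measure the spread between cultures. DMSO 48 h replicate 1 stood somewhat apart, with a residual SD of 0.336 over all probe sets tested against 0.243 to 0.297 on the other arrays. Over the 32 genes its residual SD was 0.127, inside the range of 0.0831 to 0.149 on the others. Without it the counts at 48 h against DMSO, given further on, stayed at 14 higher and 1 lower at 60 uM and at 22 higher and 1 lower at 1000 uM.

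Peroxisomal proteins are made in the cytosol and imported. Receptors carry folded enzymes to a docking complex on the membrane, and a ubiquitin ligase and an ATPase then return the receptor to the cytosol. Membrane proteins use a separate route through PEX19, PEX3 and PEX16, while PEX11 proteins elongate the membrane before a dynamin-like GTPase cuts it. In rodent liver, fibrates are known for multiplying peroxisomes and for raising the fatty acid oxidation enzymes inside them.

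PPAR-alpha binds DNA with RXR at 2 AGGTCA-like sites set 1 base apart, written here as AGGTCANAGGTCA. RefSeq start-site windows of build GRCr8 were found for 31 of the 34 genes, giving 33 windows, and the 250 bases before each start were searched on both strands. Stretches of the 3 membrane insertion genes, of Pex11a and Nudt7, which rose with them, and of Cat, which held the closest match, are printed to show how far their nearest matches lie from the motif. Capitals mark the closest match to the motif, which in Pex11a and Nudt7 reads on the opposite strand.
Pex3 at chr1:9774608-9774668, minus strand: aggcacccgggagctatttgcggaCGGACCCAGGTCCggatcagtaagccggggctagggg
Pex16 at chr3:98802607-98802667, plus strand: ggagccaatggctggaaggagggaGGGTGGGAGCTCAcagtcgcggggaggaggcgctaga
Pex19 at chr13:87124506-87124566, plus strand: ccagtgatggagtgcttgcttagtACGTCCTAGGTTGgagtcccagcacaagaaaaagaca
Pex11a at chr1:143096609-143096669, minus strand: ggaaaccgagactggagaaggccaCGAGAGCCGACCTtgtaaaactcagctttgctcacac
Nudt7 at chr19:59034701-59034761, plus strand: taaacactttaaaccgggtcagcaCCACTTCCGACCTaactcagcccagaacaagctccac
Cat at chr3:110329659-110329719, minus strand: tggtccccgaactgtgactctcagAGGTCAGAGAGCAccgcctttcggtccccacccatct

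The capitals in Cat differ from the motif at 2 of its 12 fixed bases, those in Pex3, Pex16, Pex19 and Nudt7 at 4, and those in Pex11a at 5. Up to 2 differences were found in 1 of the 33 windows, that of Cat, and in 3.15% of all 33469 windows. Up to 3 were found in 4 of 33 windows (12.1%) and in 21.4% of all. Up to 4 were found in 23 of 33 windows (69.7%) and in 74.5% of all. The single site AGGTCA stood in 5 of 33 windows (15.2%) and in 14.1% of all. The share at up to 3 differences was lower than that of all windows. No match says only that these letters are absent from this window.

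CCAAT, a common promoter element read by the factor NF-Y, was searched in the same windows, as its count in Pxmp4 and Cat stood apart. At least 1 copy on either strand was found in 12 of 33 windows (36.4%) and in 34.0% of all. At least 3 copies were found in 3 of 33 windows (9.09%) and in 2.52% of all. At least 4 copies were found in 2 of the 33 windows, those of Cat and Pxmp4, and in 0.565% of all. Pxmp4 held 6, a number reached by 0.0329% of all windows. The element was picked because of these 2 windows, so their shares describe them and test nothing. Both windows are printed with CCAAT, or ATTGG where it reads on the opposite strand, in capitals.
Cat at chr3:110329527-110329776, minus strand: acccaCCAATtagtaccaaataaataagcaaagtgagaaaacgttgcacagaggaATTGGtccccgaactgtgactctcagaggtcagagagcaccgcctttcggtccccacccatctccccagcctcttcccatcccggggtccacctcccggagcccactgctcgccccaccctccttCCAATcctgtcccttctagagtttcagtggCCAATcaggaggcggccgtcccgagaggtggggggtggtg
Pxmp4 at chr3:163570830-163571079, minus strand: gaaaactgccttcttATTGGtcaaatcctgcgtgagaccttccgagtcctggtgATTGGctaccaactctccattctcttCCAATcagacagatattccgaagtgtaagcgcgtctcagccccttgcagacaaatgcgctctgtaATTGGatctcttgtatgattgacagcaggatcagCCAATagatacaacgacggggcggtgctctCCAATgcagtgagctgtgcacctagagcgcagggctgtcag

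Clofibrate raised more of the peroxisome genes than it lowered at both doses and both times. At 60 uM and 24 h, 12 of the 32 tested genes passed as higher than DMSO and 0 as lower (limma, adjusted p under 0.05), where 3.43% of all 18625 probe sets tested passed as higher and 3.14% as lower. No gene was lower at an unadjusted p under 0.05 either. The share of all probe sets at that unadjusted limit is not given, here or below. At 1000 uM and 24 h, 19 were higher and 3 lower, against 11.5% and 17.4% of all probe sets. At 48 h, 14 were higher and 1 lower at 60 uM, against 4.62% and 4.43%, and 22 were higher and 1 lower at 1000 uM, against 15.2% and 22.7%. Among all probe sets, falls outnumbered rises at 1000 uM, while among these genes rises outnumbered falls. The first of these turned with the scaling: 82.3% of all calls at 24 h and 68.5% at 48 h were rises after scaling to the added poly-A control RNA, and 54.2% at 24 h after centring on array medians.

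The median log2 change of the 32 genes was 0.15 at 60 uM and 24 h, 0.24 at 1000 uM and 24 h, 0.18 at 60 uM and 48 h and 0.43 at 1000 uM and 48 h. Over all probe sets the same medians were -0.03, -0.05, -0.004 and -0.04. The 5 treated arrays lay wholly apart from the 5 DMSO arrays for 11, 19, 11 and 22 of the 32 genes in that order, against 6.56%, 21.6%, 7.77% and 26.7% of all probe sets. Values named below as changes are log2 differences ± SE from 1 limma fit of all 30 arrays, with p-values adjusted over all 18625 probe sets. Signals are linear MAS5 signals, 1 per culture, and are not compared between genes.

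**Figure D1:**
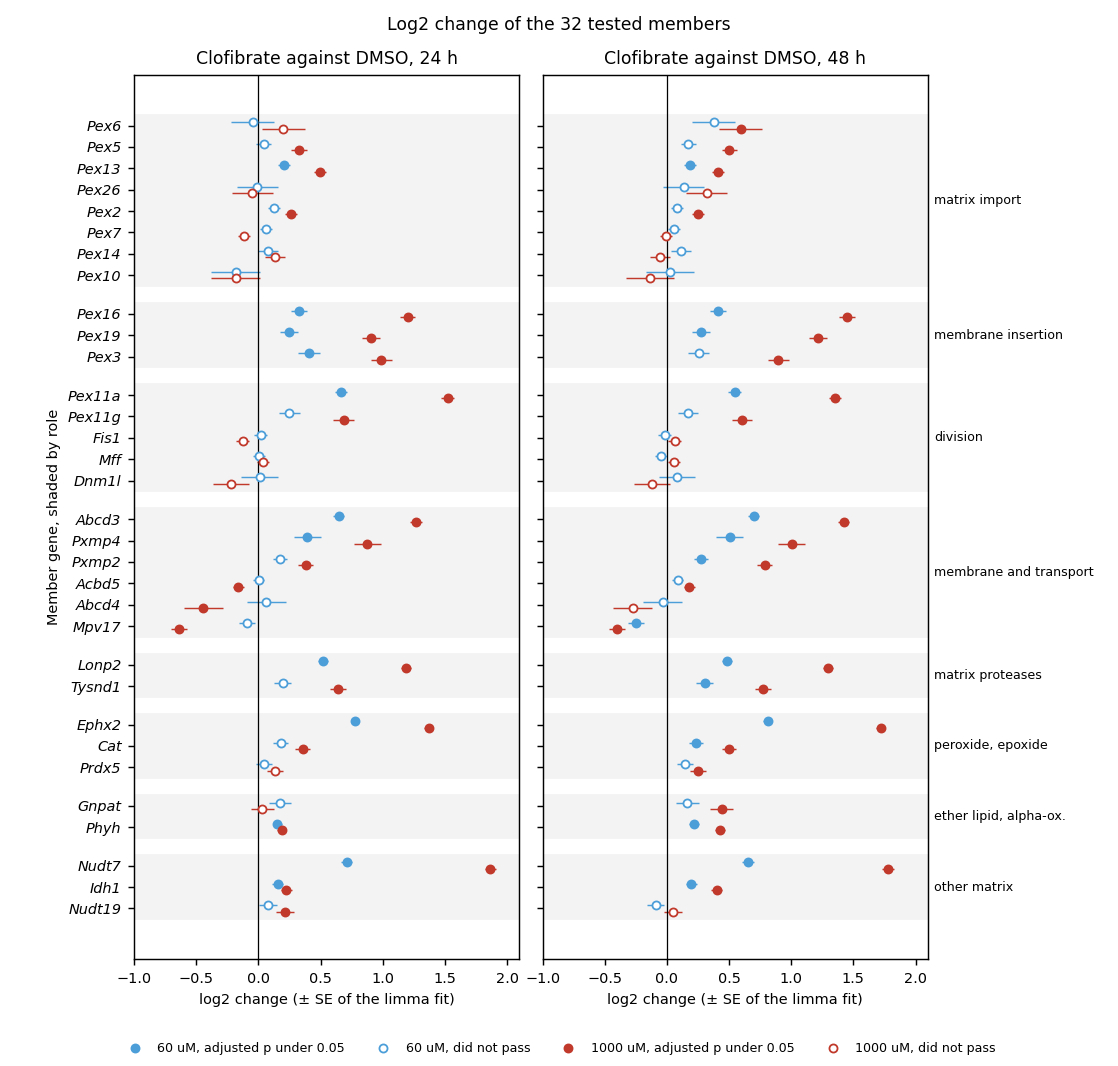
Log2 change against DMSO (x axis, ± SE of the limma fit) for each of the 32 tested genes, shaded by role, at 24 h (left) and 48 h (right). Blue stands for 60 uM, red for 1000 uM, and filled points passed at an adjusted p under 0.05. Nudt7, Ephx2, Pex11a, Abcd3, Pex16 and Lonp2 lie farthest to the right in both panels at 1000 uM, and Mpv17 lies farthest to the left.

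Of the 8 matrix import genes, 3 rose at 1000 uM by 24 h (Pex13, Pex5 and Pex2) and 4 by 48 h (with Pex6), and 0 fell. Over all probe sets 11.5% were higher and 17.4% lower at 24 h, and 15.2% and 22.7% at 48 h. At an unadjusted p under 0.05, 1 was lower at 24 h (Pex7) and 0 at 48 h. PEX13 is a docking protein of the import channel. The Pex13 signals at 24 h were 11733, 10896, 11742, 11897 and 12106 in DMSO, 14004, 14091, 12835, 13120.3 and 13083 at 60 uM and 16091, 16029.6, 16816, 16477 and 16949.9 at 1000 uM. By 48 h the values were 10092, 10747, 11201, 12743 and 12661 in DMSO, 12666, 13195, 12839, 12707 and 13554 at 60 uM and 15278, 15594, 15089, 15527 and 14608 at 1000 uM. The 1000 uM arrays lay above all DMSO and all 60 uM arrays at both times, while the 60 uM and DMSO arrays overlapped at 48 h. The change at 1000 uM was 0.50 ± 0.05 (adjusted p = 4.4e-10) at 24 h and 0.41 ± 0.05 (adjusted p = 1.69e-08) at 48 h, and at 60 uM it was 0.20 ± 0.05 (adjusted p = 0.00628) and 0.18 ± 0.05 (adjusted p = 0.0112). The 48 h call at 60 uM was lost without DMSO 48 h replicate 1 (adjusted p = 0.0615), with median centring (0.106), with spike-in scaling (0.208) and with only the groups compared (0.113), in a range of 0.00165 to 0.208 over 20 alternatives.

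PEX5 is the receptor for most matrix enzymes. The Pex5 signals at 24 h were 3148, 3019, 2769, 3092 and 3035 in DMSO, 3253, 3082, 3112, 2987 and 3057 at 60 uM and 3434, 3960.0, 3722, 3863 and 3893 at 1000 uM. The 48 h values were 3139.5, 2521, 2842, 2999 and 2776 in DMSO, 3563, 3209.8, 3377, 2884 and 3063 at 60 uM and 4102, 3673, 3980.0, 3984 and 4483 at 1000 uM. The 1000 uM arrays stood clear of both other groups at each time, and the 60 uM arrays overlapped DMSO. Pex5 changed at 1000 uM by 0.32 ± 0.06 (adjusted p = 0.000108) at 24 h and by 0.50 ± 0.06 (adjusted p = 5.49e-08) at 48 h, with no call at 60 uM. At 60 uM and 48 h it passed without DMSO replicate 1 (adjusted p = 0.0408) or 60 uM replicate 4 (0.0353). A second, dimmer probe set of Pex5 did not pass and had changes of -0.20 ± 0.24 (adjusted p = 0.607) and -0.07 ± 0.24 (adjusted p = 0.859), so the rise rests on 1 of its 2 probe sets.

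Pex2, 1 of the RING ubiquitin ligases that recycle PEX5, rose at 1000 uM by 0.26 ± 0.05 (adjusted p = 3.61e-05) at 24 h and 0.25 ± 0.05 (adjusted p = 5.19e-05) at 48 h, and its second probe set passed the same way at both times. Its signals ran from 5758 to 6486 in DMSO to 7310.4 to 7584 at 1000 uM and 24 h, with no overlap. Pex6, the ATPase that pulls PEX5 back out of the membrane, passed only at 1000 uM and 48 h, at 0.59 ± 0.17 (adjusted p = 0.00651). Its signals there were 1308, 1021, 1078, 904 and 988, above the DMSO values of 727, 743, 853, 535 and 667. At 1000 uM and 24 h the change of Pex6 was 0.20 ± 0.17 (adjusted p = 0.442).

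The other 4 import genes did not pass against DMSO at either dose. Pex7, the receptor for a smaller set of enzymes with an N-terminal signal, changed by -0.12 ± 0.05 (adjusted p = 0.0621) at 1000 uM and 24 h and by -0.01 ± 0.05 (adjusted p = 0.928) at 48 h. The first of these passed without DMSO 24 h replicate 3 (adjusted p = 0.0442) or without 1000 uM 24 h replicate 5 (adjusted p = 0.0299, range 0.0299 to 0.572 over 20 alternatives). Pex14, the other docking protein, changed by 0.14 ± 0.08 (adjusted p = 0.22) and -0.06 ± 0.08 (adjusted p = 0.616) at 1000 uM. Its 24 h value passed as higher with spike-in scaling, at 0.36 (adjusted p = 0.014). Pex10, a second RING ligase, changed by -0.18 ± 0.19 (adjusted p = 0.545) and -0.13 ± 0.19 (adjusted p = 0.635), and Pex26, the membrane anchor of the export ATPase, by -0.05 ± 0.17 (adjusted p = 0.872) and 0.32 ± 0.17 (adjusted p = 0.13). The 48 h value of Pex26 passed as higher with spike-in scaling (adjusted p = 0.0279) and without DMSO 48 h replicate 3 (0.0314). The SE of Pex10, Pex26 and Pex6 was over 2 times that of Pex5 or Pex13, so changes of the size seen in Pex2 could not be detected in them.

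All 3 membrane protein insertion genes rose at 1000 uM at both times and under all 3 other scalings, to between 1.86 and 2.73 times DMSO at 48 h. Of all probe sets 11.5% passed as higher at 24 h and 15.2% at 48 h. PEX19 is the cytosolic chaperone that carries new membrane proteins, PEX3 its anchor on the peroxisome, and PEX16 helps PEX3 and other proteins reach the membrane. The Pex16 signals at 24 h were 3633, 3827, 3282, 3354 and 3291 in DMSO, 3845, 4696, 4272, 4589.6 and 4397 at 60 uM and 7929, 7926, 8731, 7262 and 8082 at 1000 uM. At the later time they read 3417, 3066, 3545, 3618 and 3666 in DMSO, 4679, 4849.9, 4615, 4174 and 4715 at 60 uM and 9664, 9556, 9842, 8419 and 9799.8 at 1000 uM. The 3 groups stood apart at both times, in the order of dose. Pex16 changed by 0.33 ± 0.06 (adjusted p = 0.000552) at 60 uM and 1.20 ± 0.06 (adjusted p = 9.34e-17) at 1000 uM by 24 h. By 48 h its change was 0.41 ± 0.06 (adjusted p = 1.27e-05) and 1.45 ± 0.06 (adjusted p = 4.19e-19). A second, dimmer probe set of Pex16 did not pass, with changes at 1000 uM of -0.19 ± 0.15 (adjusted p = 0.405) and 0.27 ± 0.15 (adjusted p = 0.184). The rise of Pex16 therefore rests on the brighter of its 2 probe sets.

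The Pex19 signals at 24 h were 2068, 1717, 1792, 1793 and 1645 in DMSO, 2093, 2026, 2169, 2216 and 2154 at 60 uM and 2975, 3131, 3753, 3662 and 3361 at 1000 uM. After 48 h the signals were 2083, 1950.4, 1897, 1786 and 2245 in DMSO, 2614, 2215, 2315, 2299.8 and 2572 at 60 uM and 4220.2, 4727, 4567, 4527 and 5047 at 1000 uM. At 1000 uM the arrays lay above both other groups at each time, while 60 uM overlapped DMSO. Pex19 changed at 1000 uM by 0.90 ± 0.07 (adjusted p = 5.82e-12) at 24 h and 1.21 ± 0.07 (adjusted p = 2.31e-15) at 48 h. At 60 uM it changed by 0.25 ± 0.07 (adjusted p = 0.0345) and 0.27 ± 0.07 (adjusted p = 0.0125). The 24 h call at 60 uM was lost without any 1 of DMSO replicates 2, 3, 4 and 5 or 60 uM replicates 1, 3, 4 and 5 (adjusted p 0.0511 to 0.102, range 0.00996 to 0.102 over 20 alternatives). It was also lost with no filter on low signals (0.052) and with only the groups compared (0.0689). The 48 h call was lost with spike-in scaling (adjusted p = 0.114) and with only the groups compared (0.0559).

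The Pex3 signals at 24 h were 1414, 1279, 1176, 1106 and 1557 in DMSO, 1443, 1735, 1869, 1914 and 1666 at 60 uM and 2435, 2658, 2815, 2631 and 2351 at 1000 uM. By 48 h the values were 1470.4, 1494, 1557, 1521 and 1531 in DMSO, 1827, 1621, 1926, 1636 and 2063 at 60 uM and 3105, 2743, 2762, 2609.6 and 2902 at 1000 uM. The 1000 uM arrays again stood clear of both other groups. Pex3 changed by 0.99 ± 0.09 (adjusted p = 4.11e-11) at 1000 uM and 24 h and by 0.90 ± 0.09 (adjusted p = 2.51e-10) at 48 h. At 60 uM it passed at 24 h, at 0.41 ± 0.09 (adjusted p = 0.00196), where the arrays overlapped DMSO. At 48 h it did not, at 0.25 ± 0.09 (adjusted p = 0.0612), although those 5 arrays lay above the 5 DMSO arrays, and it passed there without 60 uM replicate 2 (adjusted p = 0.0399) or 4 (0.0439).

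Among the 5 division genes, both PEX11 forms rose at 1000 uM at both times, where 11.5% (24 h) and 15.2% (48 h) of all probe sets were higher. Fis1, Dnm1l and Mff did not pass against DMSO at any dose or time. PEX11A is the inducible PEX11 form and PEX11G a form that works with the fission factors. The Pex11a signals at 24 h were 10006, 9058, 9998, 9877 and 10269.9 in DMSO, 16446, 15654, 15773, 15247 and 14845 at 60 uM and 30522, 24599, 30072, 28304 and 28159.9 at 1000 uM. The 48 h values were 11183, 10741, 10160.4, 10803 and 12248 in DMSO, 15955, 15705, 17488, 15295 and 16003 at 60 uM and 26608, 29384, 28596, 28055 and 27885 at 1000 uM. All 3 groups stood apart at both times, in the order of dose. Pex11a changed at 60 uM by 0.66 ± 0.05 (adjusted p = 1.9e-11) and at 1000 uM by 1.52 ± 0.05 (adjusted p = 1.13e-21) at 24 h, the latter a 2.87-fold rise. At 48 h the changes were 0.55 ± 0.05 (adjusted p = 1.46e-09) and 1.35 ± 0.05 (adjusted p = 1.76e-20). A second probe set of Pex11a passed the same way at both doses and times, with 1.58 and 1.61 at 1000 uM.

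The Pex11g signals at 24 h were 2322, 2317, 2377, 2227 and 2497 in DMSO, 3007, 3137, 2521, 2621 and 2703 at 60 uM and 4109.5, 3861, 3963, 3568 and 3394 at 1000 uM. At the later time they read 2309, 2613, 2605, 2629 and 2232 in DMSO, 2877, 3229, 2898, 2607 and 2366 at 60 uM and 4041, 3367, 3596, 4425 and 3461 at 1000 uM. At 1000 uM they lay above both other groups. Pex11g changed at 1000 uM by 0.68 ± 0.08 (adjusted p = 3.29e-08) at 24 h and 0.60 ± 0.08 (adjusted p = 2.4e-07) at 48 h, and at 60 uM by 0.25 ± 0.08 (adjusted p = 0.063) and 0.17 ± 0.08 (adjusted p = 0.232), which did not pass. The 24 h value at 60 uM passed with median centring (adjusted p = 0.0249), quantile normalization (0.0422), spike-in scaling (0.0229) and without 60 uM 24 h replicate 3 (0.0429), in a range of 0.0229 to 0.191 over 20 alternatives.

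FIS1 and MFF are tail-anchored receptors that bring the GTPase DRP1, product of Dnm1l, to peroxisomes and also to mitochondria. The Fis1 signals at 24 h were 8348, 8656, 7970.0, 8460.0 and 9416 in DMSO, 8353, 10224, 8311, 8167 and 8380.3 at 60 uM and 7847, 8005, 8641, 7552 and 7224 at 1000 uM. After 48 h the signals were 9439, 8640.2, 8668, 8980.3 and 8805 in DMSO, 8971, 8713, 8952, 8976 and 8358 at 60 uM and 9063, 9046, 9624, 9638 and 9153 at 1000 uM. The groups overlapped in every comparison with DMSO. Fis1 changed at 1000 uM by -0.13 ± 0.05 (adjusted p = 0.078) at 24 h and 0.06 ± 0.05 (adjusted p = 0.388) at 48 h, Mff by 0.04 ± 0.05 (adjusted p = 0.647) and 0.06 ± 0.05 (adjusted p = 0.416), and Dnm1l by -0.22 ± 0.14 (adjusted p = 0.286) and -0.12 ± 0.14 (adjusted p = 0.575). After scaling to the spike-ins the 24 h direction of Fis1 turned, to log2 0.10 (adjusted p = 0.379), and Fis1 at 48 h (0.0302) and Mff at 24 h (0.0209) passed as higher. At 24 h Fis1 passed as lower with quantile normalization (adjusted p = 0.0256) and without DMSO 24 h replicate 3 (0.0415) or 1000 uM 24 h replicate 3 (0.0259), in a range of 0.0256 to 0.557 over 20 alternatives.

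**Figure D2:**
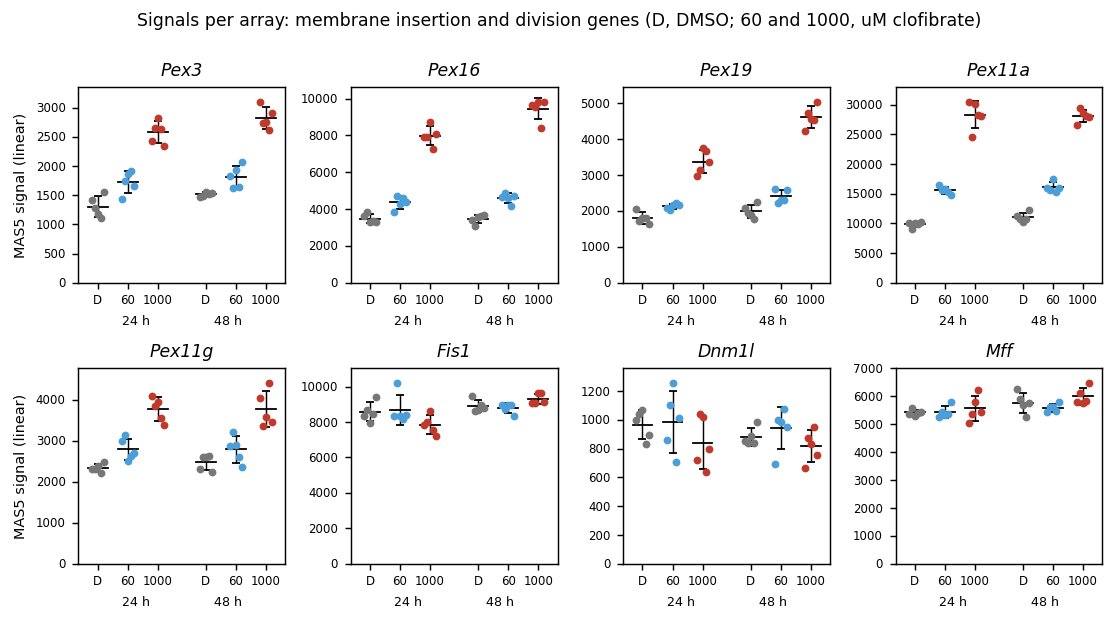
MAS5 signal (y axis, linear, from 0) of the 3 membrane insertion genes and the 5 division genes in each of the 30 cultures, by treatment and time (x axis; D is DMSO, 60 and 1000 are uM clofibrate). Points are cultures and bars the mean ± SD (n = 5). Pex3, Pex16, Pex19, Pex11a and Pex11g step up at 1000 uM, and Fis1, Dnm1l and Mff show groups that overlap DMSO.

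The membrane and transport genes went both ways at 1000 uM and 24 h. Of the 6 tested, 3 rose (Abcd3, Pxmp4 and Pxmp2) and 3 fell (Mpv17, Abcd4 and Acbd5) there, and 4 rose and 1 fell at 48 h. Over all probe sets 11.5% were higher and 17.4% lower at 24 h, and 15.2% and 22.7% at 48 h. ABCD3 carries long-chain and branched acyl-CoA and bile acid precursors into the organelle. The Abcd3 signals at 24 h were 17735, 16570.0, 17428, 16063 and 16940.2 in DMSO, 27319, 25773, 27679, 25308 and 26385 at 60 uM and 42619, 38579, 41336, 39279.6 and 41999 at 1000 uM. By 48 h the values were 17517, 16504, 16448, 17894 and 20001 in DMSO, 30243, 29477, 27411, 27526 and 28383 at 60 uM and 48069, 43953, 47762, 46893 and 49596 at 1000 uM. All groups stood apart in the order of dose. Abcd3 changed by 0.64 ± 0.05 (adjusted p = 2.12e-12) at 60 uM and 1.27 ± 0.05 (adjusted p = 6.18e-21) at 1000 uM by 24 h, and by 0.70 ± 0.05 (adjusted p = 3.19e-13) and 1.42 ± 0.05 (adjusted p = 2.01e-22) by 48 h. Its rise at 48 h was 2.68-fold at the higher dose.

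PXMP4 and PXMP2 are integral membrane proteins of the organelle, and PXMP2 forms a channel for small solutes. Pxmp4 averaged 10471 ± 1873 in DMSO, 13647 ± 1769.7 at 60 uM and 19010.2 ± 1899 at 1000 uM by 24 h (mean ± SD, n = 5). It changed by 0.88 ± 0.11 (adjusted p = 7.35e-08) at 1000 uM and 24 h and by 1.00 ± 0.11 (adjusted p = 3.11e-09) at 48 h. Its second probe set passed the same way at both doses and times. The call at 60 uM and 24 h, 0.39 ± 0.11 (adjusted p = 0.0211), was lost without DMSO replicate 4 or 5 or 60 uM replicate 2, 3 or 4 (adjusted p 0.0531 to 0.105, range 0.00504 to 0.105 over 20 alternatives). It was also lost with quantile normalization (0.0505) and with only the groups compared (0.0606), although the second probe set gave 0.37 ± 0.06 (adjusted p = 0.000151).

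The Pxmp2 signals at 24 h were 12181, 11362, 11448, 9384 and 9962 in DMSO, 12836, 13831, 11836, 10781 and 11932 at 60 uM and 14094, 13935, 13443, 14185 and 14744 at 1000 uM. The 48 h values were 12511, 12979.9, 12427, 13209 and 13547 in DMSO, 16288, 16008, 16054, 14672 and 15296 at 60 uM and 21677, 21400.4, 22907, 22080.1 and 23505 at 1000 uM. The 1000 uM arrays lay above DMSO at both times and above 60 uM at 48 h. Pxmp2 changed at 1000 uM by 0.38 ± 0.06 (adjusted p = 3.58e-06) at 24 h and by 0.79 ± 0.06 (adjusted p = 5.22e-13) at 48 h. At 60 uM it did not pass at 24 h, at 0.17 ± 0.06 (adjusted p = 0.0719), and passed at 48 h, at 0.28 ± 0.06 (adjusted p = 0.00129). The 24 h value passed without DMSO replicate 1 (adjusted p = 0.0196) or 60 uM replicate 4 (0.0179), and with median centring (0.014) or spike-in scaling (0.0321).

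MPV17 is an inner membrane protein now placed in mitochondria and once described as peroxisomal. The Mpv17 signals at 24 h were 12089, 11392, 10222, 10651 and 10986 in DMSO, 10355, 10595, 10902, 9995 and 10090.3 at 60 uM and 7926, 6738, 7419.8, 6280.1 and 7166 at 1000 uM. At the later time they read 13356, 12647, 12379, 12003 and 12029 in DMSO, 8977, 10550.4, 10649, 11281 and 11207 at 60 uM and 8955, 10309, 10288, 8556 and 9258 at 1000 uM. At 1000 uM they lay below every DMSO array at both times, and at 60 uM below DMSO only at 48 h. Mpv17 changed at 1000 uM by -0.64 ± 0.06 (adjusted p = 5.87e-10) at 24 h and by -0.40 ± 0.06 (adjusted p = 3.59e-06) at 48 h, and its change at 60 uM and 48 h was -0.25 ± 0.06 (adjusted p = 0.00799). Both 48 h calls were lost with spike-in scaling, which gave log2 -0.24 (adjusted p = 0.0565) at 1000 uM and -0.21 (adjusted p = 0.303) at 60 uM.

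ABCD4 is a transporter now placed in lysosomes, where it serves vitamin B12. Its signals at 24 h were 420.4, 622, 512, 513 and 447 in DMSO, 567, 463, 498, 602 and 486 at 60 uM and 355, 284, 326, 511 and 393 at 1000 uM. These groups overlapped. Abcd4 changed at 1000 uM and 24 h by -0.44 ± 0.16 (adjusted p = 0.033), a call lost in 11 of 20 alternatives. It was lost without DMSO replicate 2, 3 or 4 or 1000 uM replicate 1, 2 or 3 (adjusted p 0.0576 to 0.114, range 0.00678 to 0.417 over 20 alternatives). It was also lost with no filter on low signals (0.0535), median centring (0.0859), quantile normalization (0.0764), spike-in scaling (0.417) and only the groups compared (0.0943). At 48 h its change was -0.28 ± 0.16 (adjusted p = 0.179).

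ACBD5 binds acyl-CoA at the peroxisome membrane and tethers the organelle to the endoplasmic reticulum. The Acbd5 signals at 24 h were 9364, 9501, 8579, 9375 and 9184 in DMSO, 9167, 8860.2, 8834, 9212 and 9959 at 60 uM and 8658, 7831, 7977, 8562 and 8129 at 1000 uM. After 48 h the signals were 9469.7, 9519, 9595, 9707 and 10049 in DMSO, 9022, 10349, 10533, 10681 and 10818 at 60 uM and 11025, 10762, 10948, 10974 and 11001 at 1000 uM. At 24 h the 1000 uM arrays overlapped DMSO on the low side, and at 48 h they lay above all DMSO arrays. Acbd5 passed as lower at 1000 uM and 24 h, at -0.16 ± 0.04 (adjusted p = 0.00527), and as higher at 48 h, at 0.18 ± 0.04 (adjusted p = 0.00148). The 24 h direction turned with spike-in scaling, to log2 0.07 (adjusted p = 0.598), and the call was lost with median centring (adjusted p = 0.267, range 0.00123 to 0.598 over 20 alternatives). Abcd2, a very long-chain acyl-CoA transporter, gave signals of 27.9 to 243 over the 30 arrays, under the filter, and was not tested.

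Both matrix proteases rose at 1000 uM at both times, where 11.5% (24 h) and 15.2% (48 h) of all probe sets were higher. LONP2 is the organelle's Lon protease, which removes damaged matrix enzymes, and TYSND1 trims several oxidation enzymes after import. The Lonp2 signals at 24 h were 17889, 18082, 17093, 17338 and 17518 in DMSO, 25766, 26631, 25932, 23730.0 and 24273 at 60 uM and 40324, 38802, 41262, 40107 and 39526 at 1000 uM. By 48 h the values were 19659.5, 16677, 17555, 17971 and 18610.4 in DMSO, 23142, 25759, 25939, 26243 and 25356 at 60 uM and 43832, 44221, 45066, 45104 and 43242 at 1000 uM. All 3 groups stood apart in the order of dose at both times. Lonp2 changed by 0.52 ± 0.04 (adjusted p = 1.12e-11) and 1.19 ± 0.04 (adjusted p = 7.73e-22) at 24 h, and by 0.48 ± 0.04 (adjusted p = 6.17e-11) and 1.29 ± 0.04 (adjusted p = 5.89e-23) at 48 h, at 60 and 1000 uM in turn. Tysnd1 changed at 1000 uM by 0.64 ± 0.07 (adjusted p = 2.06e-09) at 24 h and 0.77 ± 0.07 (adjusted p = 1.84e-11) at 48 h, with signals of 3723 to 4319 in DMSO and 6361 to 7675 at 1000 uM at the later time. At 60 uM Tysnd1 passed at 48 h, at 0.30 ± 0.07 (adjusted p = 0.00202), and not at 24 h, at 0.19 ± 0.07 (adjusted p = 0.0822), where it passed without DMSO replicate 3 (adjusted p = 0.0458), after scaling to the spike-ins (0.0458) and after centring on array medians (0.0323).

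Of the 3 peroxide and epoxide enzymes, 2 rose at 1000 uM by 24 h and 3 by 48 h, where 11.5% and 15.2% of all probe sets were higher. EPHX2 is the soluble epoxide hydrolase, which opens fatty acid epoxides. The Ephx2 signals at 24 h were 9911, 10358, 9906, 10559.5 and 10671 in DMSO, 17271, 17493, 17467, 17088 and 18729 at 60 uM and 25804, 25010.1, 27096, 26845 and 28013 at 1000 uM. The 48 h values were 11506, 11313, 11866, 11765 and 11615 in DMSO, 19352, 20826, 19958, 20866 and 20819 at 60 uM and 37582, 37165, 37854, 38929 and 39614 at 1000 uM. The 3 groups stood apart at both times. Ephx2 changed by 0.78 ± 0.04 (adjusted p = 4.12e-17) and 1.37 ± 0.04 (adjusted p = 8.52e-25) at 24 h, and by 0.81 ± 0.04 (adjusted p = 1.19e-17) and 1.72 ± 0.04 (adjusted p = 1.6e-27) at 48 h, at 60 and 1000 uM in turn. The last was a 3.29-fold rise.

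Catalase, encoded by Cat, breaks down the hydrogen peroxide that the organelle's oxidases make. The Cat signals at 24 h were 47168, 46244, 51152, 43354 and 44574 in DMSO, 54245, 47258, 57868, 49932 and 54053 at 60 uM and 58851, 57502, 61882, 56268 and 62686 at 1000 uM. At the later time they read 46273, 49149, 44522, 49562 and 55152 in DMSO, 63730.0, 58890.0, 51839.8, 53745 and 59296 at 60 uM and 67857, 70761, 65131, 67305 and 74212 at 1000 uM. The 1000 uM arrays lay above DMSO at both times. Cat changed by 0.36 ± 0.06 (adjusted p = 1.23e-05) at 1000 uM and 24 h, a 1.28-fold rise, and by 0.50 ± 0.06 (adjusted p = 1.92e-08) at 48 h, a 1.41-fold rise. At 60 uM it changed by 0.18 ± 0.06 (adjusted p = 0.0656) at 24 h, which did not pass, and by 0.23 ± 0.06 (adjusted p = 0.00795) at 48 h. The first passed without DMSO 24 h replicate 3 (adjusted p = 0.0281) or 60 uM 24 h replicate 2 (0.0252) and under each other scaling (0.000558 to 0.0466), and the second no longer passed after scaling to the spike-ins (0.101) or centring on array medians (0.0599). Prdx5, a peroxiredoxin of several compartments, passed only at 1000 uM and 48 h, at 0.25 ± 0.07 (adjusted p = 0.00259), with signals of 24065 to 30096 in DMSO and 28850.4 to 32512 at 1000 uM that overlapped. At 1000 uM and 24 h Prdx5 passed with median centring (adjusted p = 0.0438), spike-in scaling (0.000655) and only the groups compared (0.0438). At 60 uM and 48 h it passed without DMSO replicate 5 (adjusted p = 0.0352).

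GNPAT and AGPS start ether lipid synthesis and PHYH starts the alpha-oxidation of phytanic acid. The Gnpat signals at 24 h were 1659, 1667, 1673, 2091 and 1792 in DMSO, 2034, 2122, 1761, 1863 and 2234 at 60 uM and 1922, 1583, 1825, 1924 and 1801 at 1000 uM. After 48 h the signals were 1402, 1687, 1743, 1888 and 1784 in DMSO, 1717, 2315, 1727, 1843 and 1943 at 60 uM and 2083, 2065, 2474, 2381 and 2533 at 1000 uM. The 1000 uM arrays overlapped DMSO at 24 h and lay above it at 48 h. Gnpat changed by 0.03 ± 0.09 (adjusted p = 0.86) at 1000 uM and 24 h and by 0.44 ± 0.09 (adjusted p = 0.000218) at 48 h. A second, dimmer probe set went the other way, at -0.64 ± 0.22 (adjusted p = 0.0239) at 24 h and -0.20 ± 0.22 (adjusted p = 0.507) at 48 h, so the 2 probe sets of Gnpat disagree.

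Phyh passed in all 4 comparisons with DMSO, and the groups did not overlap in any of them. Its signals at 48 h were 50962, 49229.5, 50151, 44462 and 51096 in DMSO, 55896, 58524, 57477, 56756 and 57174 at 60 uM and 68081, 67886, 66179, 66519 and 61565 at 1000 uM. It changed by 0.15 ± 0.04 (adjusted p = 0.00826) and 0.19 ± 0.04 (adjusted p = 0.000177) at 24 h and by 0.22 ± 0.04 (adjusted p = 7.49e-05) and 0.43 ± 0.04 (adjusted p = 2.45e-11) at 48 h, at 60 and 1000 uM in turn. Its second probe set passed in the same 4 comparisons, with 0.58 at 1000 uM and 48 h. Agps lay under the filter, with signals of 40.2 to 427 over the 30 arrays, and was not tested.

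NUDT7 is a hydrolase that splits CoA and acyl-CoA inside peroxisomes. Of all 32 genes, Nudt7 had the largest change at 1000 uM at both times. Its signals at 24 h were 8117, 7418, 7847, 7778 and 6528 in DMSO, 12065, 12445, 12425, 12412 and 12140.4 at 60 uM and 28591, 26714, 27243, 25979 and 28546 at 1000 uM. By 48 h the values were 7778, 7934, 8332, 8697 and 8583 in DMSO, 13779.7, 12485, 12477, 13139.8 and 13087 at 60 uM and 28497, 29169.5, 28929.7, 28476 and 26775 at 1000 uM. The 3 groups stood far apart at each time. Nudt7 changed by 0.71 ± 0.05 (adjusted p = 2.5e-13) at 60 uM and 1.87 ± 0.05 (adjusted p = 2.38e-25) at 1000 uM by 24 h, the latter a 3.64-fold rise. At 48 h it changed by 0.65 ± 0.05 (adjusted p = 1.93e-12) and 1.78 ± 0.05 (adjusted p = 6.83e-25).

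Nudt19, a CoA hydrolase of the same family, passed only at 1000 uM and 24 h, at 0.21 ± 0.07 (adjusted p = 0.0223), with groups that overlapped. That call was lost without DMSO replicate 3 or 1000 uM replicate 1 or 3 (adjusted p 0.0504 to 0.0668, range 0.00053 to 0.0668 over 20 alternatives). At 48 h its change was 0.05 ± 0.07 (adjusted p = 0.631). Idh1, the NADPH-making isocitrate dehydrogenase of cytosol and peroxisome, rose in all 4 comparisons, at 1000 uM by 0.22 ± 0.05 (adjusted p = 0.000207) at 24 h and 0.40 ± 0.05 (adjusted p = 6.93e-09) at 48 h. Its signals at 48 h ran over 28719 to 33337 in DMSO and 38989 to 43906 at 1000 uM. The call at 60 uM and 24 h, 0.15 ± 0.05 (adjusted p = 0.0318), was lost without any 1 of DMSO replicates 1, 2, 3 and 4 or 60 uM replicates 1 and 5 (adjusted p 0.0601 to 0.113, range 0.00881 to 0.113 over 20 alternatives), and that at 48 h, 0.20 ± 0.05 (adjusted p = 0.003), with median centring (0.0817) and spike-in scaling (0.122).

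**Figure D3:**
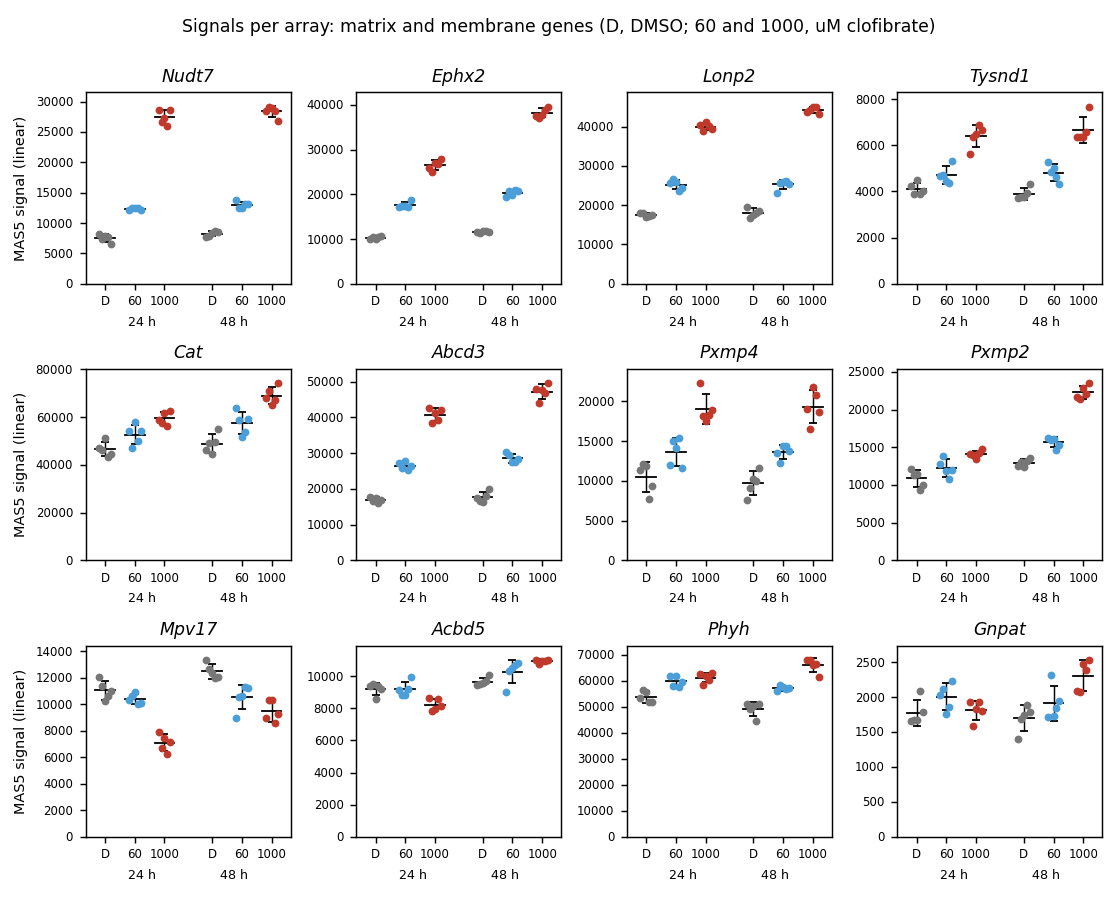
MAS5 signal (y axis, linear, from 0) of 12 matrix and membrane genes in each of the 30 cultures, by treatment and time (x axis; D is DMSO, 60 and 1000 are uM clofibrate). Points are cultures and bars the mean ± SD (n = 5). Nudt7, Ephx2, Lonp2 and Abcd3 step up with dose, Mpv17 steps down at 1000 uM, and Acbd5 and Gnpat lie above DMSO at 1000 uM only at 48 h.

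The 2 doses were compared directly, without the DMSO means, although the DMSO arrays stayed in the fit that set the SE. At 24 h, 16 of 32 genes were higher at 1000 uM than at 60 uM and 4 lower, where 7.50% and 10.4% of all probe sets passed. With spike-in scaling the split was 15 and 1. Among the higher genes at 24 h, the call of Pex2 (adjusted p = 0.0341) was lost in 10 of 20 alternatives. That of Cat (0.0332) was lost in 7 of 20, and those of Pex5 and Pxmp2 in 1 each. The second probe set of Pex2 did not pass between the doses at 24 h (adjusted p = 0.335) or 48 h (0.162). At 48 h, 19 were higher and 0 lower, where 25.3% of all probe sets differed (1869 higher and 2850 lower of 18625). The 48 h call of Gnpat (adjusted p = 0.0244) was lost in 6 of 20 alternatives and reversed in 1. At an unadjusted p under 0.05, 2 of the 32 were lower, with no share of all probe sets at that limit. The groups did not overlap for 17 and 19 genes, against 14.7% and 18.6% of all probe sets. Nudt7 had the largest such difference, at 1.16 ± 0.05 (adjusted p = 6.14e-19) and 1.13 ± 0.05 (adjusted p = 6.21e-19), followed at 24 h by Pex16 at 0.87 ± 0.06 (adjusted p = 1.04e-12) and Pex11a at 0.86 ± 0.05 (adjusted p = 1.71e-14).

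Phyh and Idh1 did not pass between the doses at 24 h, at 0.03 ± 0.04 (adjusted p = 0.615) and 0.07 ± 0.05 (adjusted p = 0.352), and did at 48 h, at 0.21 ± 0.04 (adjusted p = 5.03e-05) and 0.20 ± 0.05 (adjusted p = 0.000717). The 4 genes lower at 1000 uM than at 60 uM by 24 h were Mpv17 at -0.55 ± 0.06 (adjusted p = 3.35e-08), Abcd4 at -0.51 ± 0.16 (adjusted p = 0.0216), Pex7 at -0.18 ± 0.05 (adjusted p = 0.00555) and Acbd5 at -0.16 ± 0.04 (adjusted p = 0.00839). The call of Abcd4 was lost without 60 uM replicate 1 or 4 or 1000 uM replicate 2 or 3 (adjusted p 0.0526 to 0.0816, range 0.0045 to 0.183 over 20 alternatives). It was also lost with only the groups compared (0.0605). With spike-in scaling Abcd4 (adjusted p = 0.183), Pex7 (0.656) and Acbd5 (0.757) did not pass, and Acbd5 did not with median centring (0.0897).

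In DMSO alone, 4 genes were higher at 48 h than at 24 h and 1 lower, where 3.88% and 3.07% of all probe sets passed. With spike-in scaling the split was 8 and 0. Pex7 changed by 0.32 ± 0.05 (adjusted p = 1.31e-05), Pxmp2 by 0.26 ± 0.06 (adjusted p = 0.00392), Idh1 by 0.23 ± 0.05 (adjusted p = 0.000876) and Ephx2 by 0.18 ± 0.04 (adjusted p = 0.00113). Phyh was lower, at -0.13 ± 0.04 (adjusted p = 0.0246), a call lost without DMSO 24 h replicate 2 or 3 or DMSO 48 h replicate 4 (adjusted p 0.067 to 0.105), and its direction turned with spike-in scaling. The Pex7 signals in DMSO were 3641, 3552, 3363, 3629 and 3424 at 24 h and 4288, 3995, 4428, 4683 and 4586 at 48 h, which did not overlap. The groups did not overlap for 5 of the 32 genes, those called, against 5.91% of all probe sets.

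The clofibrate effect was then compared between the times. For 60 uM, 0 of 32 genes differed in either direction, where 0.0859% of all probe sets passed. At an unadjusted p under 0.05 the count was 0 as well. For 1000 uM, 5 genes had a more positive change at 48 h and 0 a more negative one, where 4.17% and 4.12% of all probe sets passed. At an unadjusted p under 0.05 the counts were 11 and 1, which cannot be set against those shares, taken at an adjusted p. The difference was 0.41 ± 0.13 (adjusted p = 0.0443) for Gnpat, 0.41 ± 0.08 (adjusted p = 0.00108) for Pxmp2, 0.35 ± 0.05 (adjusted p = 1.06e-05) for Ephx2, 0.34 ± 0.06 (adjusted p = 0.00036) for Acbd5 and 0.24 ± 0.05 (adjusted p = 0.00234) for Phyh. All 5 calls were lost with spike-in scaling (adjusted p 0.129 to 0.422), which left differences of 0.35 for Gnpat, 0.34 for Pxmp2, 0.29 for Ephx2, 0.28 for Acbd5 and 0.18 for Phyh. With median centring Gnpat (0.35, adjusted p = 0.151) and Phyh (0.18, adjusted p = 0.125) did not pass. The call of Gnpat was lost in 16 of 30 alternatives, among them those without DMSO 24 h replicate 4 or 5, 1000 uM 24 h replicate 2, 3 or 5, DMSO 48 h replicate 1, 2 or 3, or 1000 uM 48 h replicate 3, 4 or 5 (adjusted p 0.0539 to 0.101, range 0.0306 to 0.475 over 30 alternatives). Leaving out DMSO 48 h replicate 5 raised the count of more positive changes to 8.

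**Figure D4:**
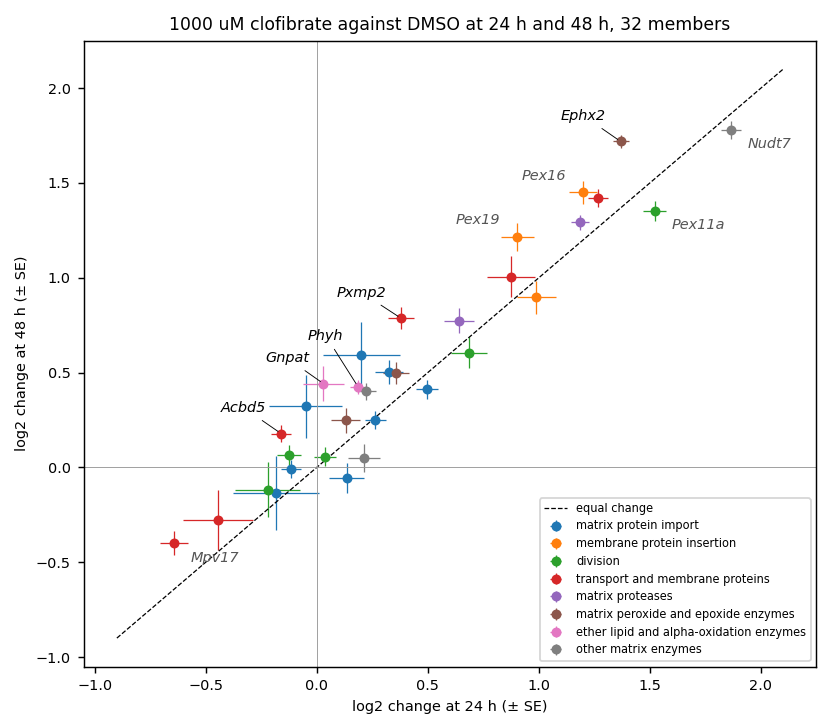
Log2 change at 1000 uM against DMSO at 24 h (x axis) and at 48 h (y axis), each ± SE, for the 32 tested genes coloured by role. The dashed line marks equal change. Pxmp2, Acbd5, Ephx2, Gnpat and Phyh, named in black, lie above the line and had an adjusted p under 0.05 for the difference between times.

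Other peroxisome genes were counted for comparison. At 1000 uM, 11.5% of all probe sets passed as higher and 17.4% as lower at 24 h, and 15.2% and 22.7% at 48 h. The list of 34 other peroxisome genes outside the 36, with 24 tested, had 14 higher and 6 lower at 1000 uM and 24 h. At 48 h it had 14 higher and 4 lower. The largest changes were those of Hao2, a hydroxyacid oxidase, at -2.17 ± 0.14 (adjusted p = 1.57e-14) and -2.22 ± 0.14 (adjusted p = 5.35e-15). The largest rises were that of Hsdl2 at 24 h, 1.56 ± 0.06 (adjusted p = 6.28e-21), and that of Vwa8 at 48 h, 1.69 ± 0.08 (adjusted p = 4.25e-18). Peroxisomal beta-oxidation genes, 13 tested of 16, had 12 higher and 1 lower at 24 h and 13 higher and 0 lower at 48 h, with 0 lower at an unadjusted p under 0.05. Their median log2 change at 1000 uM was 1.44 and 1.67, against 0.24 and 0.43 in the 32 genes. Ehhadh, the bifunctional enzyme of that pathway, changed by 4.98 ± 0.08 (adjusted p = 1.08e-30) and 5.06 ± 0.08 (adjusted p = 6.58e-31).

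Receptor and coregulator genes, 9 tested of 11, had 2 higher and 1 lower at 1000 uM and 24 h and 3 higher and 1 lower at 48 h. Over all probe sets 11.5% were higher and 17.4% lower at 24 h, and 15.2% and 22.7% at 48 h. The corepressor Ncor1 rose by 0.22 ± 0.05 (adjusted p = 0.00102) and 0.48 ± 0.05 (adjusted p = 2.28e-09), and the coactivator Ncoa1 by 0.59 ± 0.11 (adjusted p = 3.71e-05) and 0.45 ± 0.11 (adjusted p = 0.000768). Ppargc1b, a coactivator, passed at 48 h, at 0.33 ± 0.12 (adjusted p = 0.03). Ppargc1a, a coactivator, changed by -0.48 ± 0.12 (adjusted p = 0.00152) and -0.77 ± 0.12 (adjusted p = 1.91e-06). These lists were chosen with results of these data known.

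Over the whole series, arrays of 1 group correlated at 0.964 to 0.979 over the 18625 probe sets tested. All 9 hepatocyte markers found of 10 listed lay above the filter, and their summed signal ranged from 548849 to 612690 in DMSO and 458661 to 511524 at 1000 uM by 24 h, and from 489027 to 590868 and 425021 to 450416 by 48 h. Of these 9, 0 passed as higher and 7 as lower at 1000 uM and 24 h, and 1 and 4 at 48 h. Over all probe sets, 11.5% were higher and 17.4% lower at 24 h, and 15.2% and 22.7% at 48 h. The 8 Kupffer cell markers found of 9 summed to 11606 to 13342 in DMSO and 8596 to 10724 at 1000 uM at 24 h, and to 9934 to 11330 and 6933 to 7896 at 48 h. Of the 6 tested, 1 passed as lower at 24 h (Lyz2, log2 -0.59), where 17.4% of all probe sets were lower. At 48 h 2 of the 6 passed as lower (Lyz2, -0.85, and C1qb, -1.86), where 22.7% of all were lower. At that time 3 of the 6 lay above 0, with a median of 0.06. These markers were all named after their values were seen. Over all groups, 5 endothelial markers of 6 summed to 1302 to 2355, 6 stellate markers of 6 to 2296 to 3576 and 2 lymphoid markers of 4 to 298 to 600. The 3 bile duct markers found of 4 summed to 9765 to 11187 in DMSO and 7035 to 8051 at 1000 uM at 24 h, and to 12530 to 14990 and 9809 to 10368 at 48 h, so the groups did not overlap. Only 1 of these 3, Epcam, lay above the filter, with changes of -0.44 and -0.43. Their part in the results was not tested, and in bulk RNA fewer cells of a type and less RNA per cell cannot be told apart. The 3' to 5' signal ratio of actin was 2.33 to 2.56 over the groups, and was highest at 1000 uM and 24 h. Scaling to added poly-A control RNA moved the median of all probe sets at 1000 uM from -0.05 to 0.18 at 24 h and from -0.04 to 0.12 at 48 h, and the share of calls that were higher from 39.8% to 82.3% and from 40.2% to 68.5%. Median centring moved the 24 h share to 54.2%.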

How the data were processed

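Total RNA of 30 rat hepatocyte cultures was hybridised to Affymetrix rat arrays, 1 array a culture, per the labels' protocols. The values are the linear intensity (MAS5 signal) of each probe set as deposited by the authors, scaled by array, made with MAS5 per the submitters' processing notes. With the highest and lowest 2% of values left out, every array had a mean of 1501.

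Their log2 was taken with nothing added. Of 31042 probe sets other than Affymetrix controls, 18625 had a mean log2 over the 40th percentile (8.00, a signal of 255) and entered 1 limma fit (version 3.58.1, R 4.3.3) of 6 group means, with eBayes (trend on) and p-values adjusted by Benjamini-Hochberg separately in 9 comparisons. An adjusted p under 0.05 passed. The arrays' number limits the precision.

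Named in full are the genes with the largest changes at 1000 uM in each role and those whose calls differ between probe sets, doses or times; other lists give up to 4 names by size of change. The 36 genes, the roles and the lists were chosen with earlier results of these data known. Symbols came from the platform's table. Sequences are RefSeq's, of build GRCr8. The motifs were chosen with the results known. Alternatives covered the filter, median centring, quantile normalization, poly-A spike-in scaling, a constant of 32, the trend, the groups fitted, the probe set, sets of 6 title numbers as a term, and leaving out each array.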

Additional observations from a re-analysis of the deposited data

Results flagged for a closer look

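In 11 of the 204 gene and group combinations examined (5.39%), 1 culture stood far from the other 4, and chance alone picks about 1 in 20 groups. The lone culture was the highest in 6 and the lowest in 5. Pex10 at 1000 uM and 24 h gave 601.9 in replicate 3, against 422 to 466 in the others. Pex16 at 1000 uM and 48 h gave 8419 in replicate 4, against 9556 to 9842. Fis1 at 60 uM and 24 h gave 10224 in replicate 2, against 8167 to 8380.3. At 60 uM and 48 h, replicate 1 was low for both Acbd5, at 9022, and Lonp2, at 23142. Replicate 5 at 1000 uM and 48 h was high for Tysnd1, at 7675, and low for Nudt7, at 26775. Prdx5 gave 30096 in DMSO 48 h replicate 5, Ephx2 18729 in 60 uM 24 h replicate 5, Phyh 44462 in DMSO 48 h replicate 4 and Idh1 28235 in DMSO 24 h replicate 5.

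The effect of 1000 uM clofibrate differed between 48 h and 24 h for 5 genes in the limma fit, all with the more positive change at 48 h. The differences were log2 0.41 for Pxmp2, 0.34 for Acbd5, 0.35 for Ephx2, 0.41 for Gnpat and 0.24 for Phyh. Acbd5 alone among them passed in opposite directions at the 2 times, a reversal not seen with spike-in scaling, where its 24 h change was 0.07.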

How the results depend on the processing

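No paired analysis was possible because the labels number the arrays 1 to 30 and give groups no shared replicate numbers. Consecutive sets of 6 title numbers, which are no stated pairing, were fitted as a term instead: no call was lost, Pex11a over time in DMSO (adjusted p = 0.0468) and Idh1 in the 1000 uM effect over time (0.0313) were gained, and those counts became 5 and 6. The counts of higher genes against DMSO stayed within 1.5 times under every alternative. With median centring, the genes lower at 1000 uM by 24 h went from 3 to 1, and the more positive effects of 1000 uM at 48 h than at 24 h from 5 to 3. With spike-in scaling, lower genes numbered 1 at 1000 uM and 24 h, 0 at 60 uM and 48 h (1 as reported), 0 at 1000 uM and 48 h (1 as reported), and 1 in place of 4 for 1000 uM against 60 uM at 24 h. The same scaling moved DMSO at 48 h against 24 h from 4 to 8 higher, and the 5 more positive effects at 48 h to 0. Quantile normalization gave 1 lower gene in place of 0 for 1000 uM against 60 uM at 48 h and 1 more negative effect at 48 h in place of 0. The 1 gene lower in DMSO over time, Phyh, became 0 with median centring, quantile normalization, spike-in scaling, no intensity trend, only the groups compared and the probe set of largest spread. With that probe set, Pex5 reversed to -0.20, -0.068 and -0.33 and Gnpat to -0.64, -0.20 and -0.13, for 1000 uM against DMSO at 24 h and 48 h and against 60 uM at 48 h. Spike-in scaling reversed Acbd5 at 1000 uM and 24 h to 0.066 and Phyh over time in DMSO to 0.022. The cause of these moves was not tested.

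Leaving out 1 array in turn gave, higher then lower, 9 to 12 and 0 at 60 uM and 24 h, 18 to 19 and 2 to 4 at 1000 uM and 24 h, 14 to 16 and 1 at 60 uM and 48 h, 22 to 23 and 1 at 1000 uM and 48 h, 14 to 16 and 3 to 4 for the doses at 24 h, 18 to 19 and 0 to 1 at 48 h, 4 to 6 and 0 to 1 for DMSO over time, and 0 and 0 and then 4 to 8 and 0 to 1 for the effects over time at 60 and 1000 uM. Among the probe sets used for the 32 genes, the widest errors were those of Pex10, Pex6, Pex26 and Abcd4, with an SE of 0.194, 0.173, 0.165 and 0.158.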
